A study of Arabidopsis thaliana with 53 samples.

Results

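Guard cells of the abf1/2/3/4 quadruple mutant were compared with and without 4 h of abscisic acid (ABA), the drought hormone that closes stomata. The comparison rests on 6 of the 53 samples of the series, 3 per group, and on 38448 of its 353370 peaks of open chromatin. Its regions are the peaks that the authors deposited for these 2 groups, 18584 with ABA and 19864 without. A region counted as gained when an ABA peak overlapped none of the control peaks by even 1 bp, and as lost when the reverse held.

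The assay was ATAC-seq, which reads open DNA from the sites where the enzyme Tn5 can insert sequencing adapters. Both groups carried the abf1/2/3/4 genotype in the Col-0 strain. Per the labels, rosettes of mature plants received a spray of 50 µM ABA or of its solvent, ethanol, and guard cell nuclei were sorted by the fluorescence of a tagged histone H2B made in that cell type. Plant age, the promoter of the nuclear marker and the alleles behind the mutant are not given in the sources used here. Beside the mutant stand the wild-type guard cell lists from the same treatments, 17891 peaks with ABA and 20954 without, also from 3 samples each.

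In plants ABA binds receptors of the PYR/PYL family, which then block clade A PP2C phosphatases and so release SnRK2 kinases. Guard cells use the SnRK2 kinase OST1 to open anion channels and to phosphorylate transcription factors. ABF1, ABF2, ABF3 and ABF4 are bZIP factors activated in this way, and they bind ABA-responsive elements in promoters of stress genes. The mutant lists show which regions opened or closed in plants labelled as lacking these factors.

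The samples of each group are represented by 1 pooled list. The spread between replicates is therefore unknown for each value, no test was made, and the intervals cover counting error only. Sequencing depth is unknown. The median −log10 p of a peak, the authors' measure of strength, was 7.49 with ABA and 7.92 without in the mutant, and 7.23 and 9.68 in the wild type. A −log10 p or a rank belongs to its own list, and a weak peak in a weak list can be missing for want of reads. Guard cell identity was readable in the lists. Of 14 guard cell marker genes, 13 had a peak in each mutant list, the exception being TGG2, against 4 in untreated mesophyll and 6 in untreated root. Markers of other tissues also had peaks: 8 of 9 mesophyll genes in both mutant lists, 9 of 14 root genes with ABA and 8 without. Over all protein-coding genes, 70.3% had a peak in the mutant list with ABA and 70.8% in that without. The part of other cell types in the results was not tested.

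With ABA, 1451 of 18584 peaks (7.81%, 95% interval 7.43 to 8.20, exact binomial) were gained. Of the 19864 control peaks, 2359 (11.9%, 11.4 to 12.3) were lost. The excess of losses depended on the lengths of the lists. When the control list was shortened to its 18584 strongest peaks, 2012 peaks were gained and 1701 were lost. The wild type gained 1505 peaks (8.41%) and lost 4355 (20.8%), and its lists differ more in length. Untreated lists give a scale for these shares: 426 peaks (2.14%) of the untreated mutant had no counterpart in the untreated wild type, and 2049 peaks (9.78%) of the untreated wild type had none in the mutant.

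Gained and lost regions were mostly weak and narrow. Gained peaks had a median width of 280 bp and a median −log10 p of 4.65, against 412 bp and 7.84 for ABA peaks shared with the control. Lost peaks had a median width of 256 bp and a median −log10 p of 4.78, against 397 bp and 8.50 for control peaks shared with ABA. The lower 50% of ranks held 96.8% of the gained and 95.6% of the lost peaks. Among the 5000 strongest peaks of each list, 7 were gained and 8 were lost, against 66 and 28 in the wild type. Strong regions present with ABA alone were rarer in the mutant lists, while the total of gains was about the same. Of the gained peaks 77.5%, and of the lost peaks 74.6%, lay more than 500 bp from any peak of the other list, so most were not the shoulder of a neighbour. The shares varied little between the 5 chromosomes, from 7.44% to 8.91% gained and from 10.7% to 12.5% lost.

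**Figure D1:**
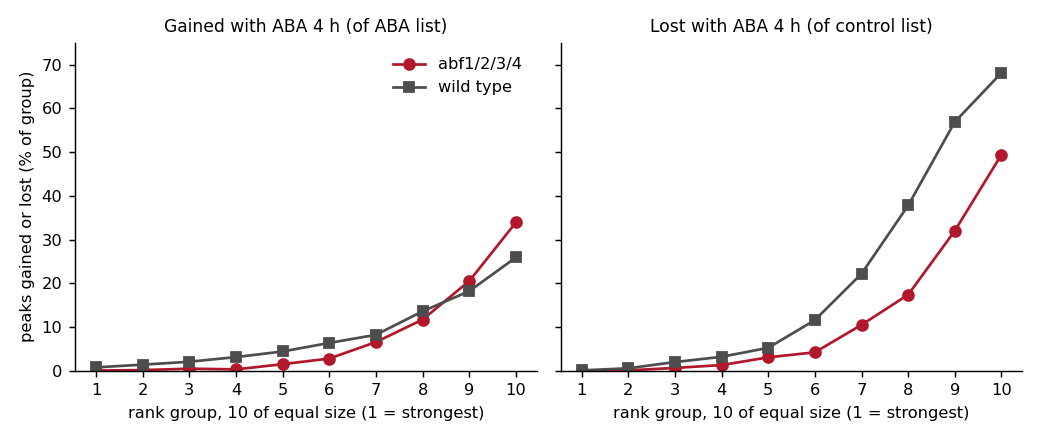
Share of peaks gained (left, percent of ABA peaks) or lost (right, percent of control peaks) in 10 rank groups of equal size, where group 1 holds the strongest peaks. In abf1/2/3/4 (red circles) the gained share went from 0.0538% in the strongest group to 33.9% in the weakest, and the lost share from 0.0504% to 49.4%. The wild type (grey squares) lies above the mutant for gains in the 8 stronger groups.

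The strongest gained region was gained in the wild type too. It spans 1064 bp at chromosome 1, 23976394 to 23977457, within the noncoding RNA gene AT1G64563, and its summit lies 1525 bp from DUO3, the nearest protein-coding gene. With ABA its −log10 p in the mutant was 18.13, rank 215 of 18584, and the control list held no peak there. The wild type showed the same pattern, with no control peak, a −log10 p of 15.67 after 4 h of ABA and 21.45 after 24 h. It was also present at 1000 ppm CO2 in the wild type, with a −log10 p of 8.86, and absent at 100 ppm.

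The other 11 of the 12 strongest gained regions ranked between 3302 and 5524. A region 2439 bp from RAP2.10, which encodes a DREB-type AP2/ERF transcription factor, had a −log10 p of 11.48 in the mutant with ABA, 13.30 in the wild type after 4 h and 15.16 after 24 h. Neither control list nor either CO2 list held it. A region 160 bp from AT2G36780 lies beside UGT73C6, a glycosyltransferase gene acting on flavonols, and had a −log10 p of 11.23. Both wild-type lists held that region, at 8.45 without ABA and 15.74 with it. The summit of a peak with −log10 p 10.69 lay 1321 bp from RING (AT4G19700), a RING-domain gene. A peak with −log10 p 10.09 near AT5G37290 has WSD1, a wax ester synthase gene, within 3 kb of it. One at 9.87 lay 242 bp from ULT2, a relative of the trithorax-group factor ULTRAPETALA1. The twelfth, at 9.64, lay 1859 bp from ZF14, a MATE transporter gene, and reached 12.85 in the wild type with ABA for 4 h and 18.06 after 24 h. All 12 regions had a peak in the wild-type ABA list, and 8 of them were missing from the wild-type control list. Gains of this strength in the mutant were all regions that the wild type also had open with ABA.

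The strongest lost region lies inside AT5G07590, at chromosome 5, 2400373 to 2401318, where the control list gives −log10 p 15.44, rank 1176 of 19864. It was 19.92 in the wild-type control and had no peak in either wild-type ABA list, at 4 h or 24 h. The second lay 1305 bp from NRT1:2, a nitrate transporter gene whose product also imports ABA. Its −log10 p was 12.89 without ABA, and no peak remained with ABA. The wild-type lists kept a weaker peak there, going from a 2881 bp peak with −log10 p 18.91 to a 215 bp peak with 5.28.

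Other strong losses lay inside PFK4, a phosphofructokinase gene (−log10 p 11.20), inside FAO3, a fatty alcohol oxidase gene (11.16), and at CSD2, a chloroplast superoxide dismutase whose lost peak (10.96) lay 15 bp from the gene. One lay 873 bp from RAP2.2, an ethylene response factor gene (10.80), and one 1176 bp from the homeobox gene WOX12 (10.57). A further one (10.63) has KRP2, a gene for an inhibitor of cyclin-dependent kinases, as its nearest protein-coding gene at 3517 bp, with only a pseudogene within 3 kb. A lost peak of −log10 p 10.64, whose nearest protein-coding gene is DMC1 at 5401 bp, has the microRNA gene MIR167a within 3 kb. Of the 12 strongest lost regions, 9 were also in the wild-type control list and absent from the wild-type list at 4 h of ABA, and 3 were in both wild-type lists.

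Most regions lost in the mutant were lost in the wild type too. Of the 2359 regions lost in the mutant, 1712 (72.6%, 95% interval 70.7 to 74.4) were in the wild-type control list and not in the wild-type ABA list. The share was 23.0% among the other control peaks of the mutant at equal rank, all of which have a mutant ABA peak by definition. A further 385 (16.3%) were in both wild-type lists, 241 (10.2%) in neither and 21 (0.890%) in the ABA list alone. Of the 1712 regions, 1189 (69.5%) were also absent from the wild-type list at 24 h of ABA.

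Opening regions were divided more evenly. Of the 1451 regions gained in the mutant, 503 (34.7%, 95% interval 32.2 to 37.2) were gained in the wild type too, meaning present in its ABA list and not in its control list. The same held for 0.680% of the other ABA peaks at equal rank, all of which have a mutant control peak by definition. Both wild-type lists held 436 (30.0%) of the gained regions, the wild-type control list alone 149 (10.3%) and neither list 363 (25.0%). Of the 503 shared gains, 330 (65.6%) were in the wild-type list at 24 h as well. They lay nearest to 466 genes, and 132 of them lay inside a gene. With all 4 guard cell lists shortened to 17891 peaks, the shares of gains and losses common to both genotypes were 44.8% and 59.0%, so the gap between them narrowed. Read from the wild-type side, 487 of its 1505 gained regions (32.4%) and 1661 of its 4355 lost regions (38.1%) had the same call in the mutant.

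**Figure D2:**
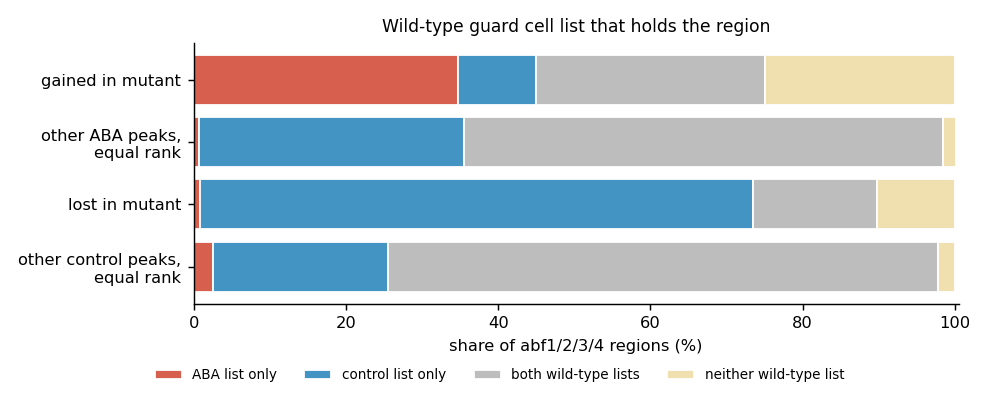
Share of abf1/2/3/4 regions (horizontal axis, percent) by the wild-type guard cell list that holds them, for regions gained or lost in the mutant and for the other peaks of the same list weighted to equal rank. The ABA list alone held 34.7% of gained regions, and the control list alone held 72.6% of lost ones.

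Shared gains were often weaker in the mutant. The ABA lists of the 2 genotypes have 15412 peaks in one-to-one overlap, and ranks were taken within that common set. Of the 466 shared gains in the set, 305 (65.5%) ranked higher in the wild type, against 42.4% of all 15412. Wide differences were found at textbook ABA targets. RD29A, the classic desiccation and cold reporter, ranked 14830 in the mutant and 3754 in the wild type at its gained region. HAI2, a highly ABA-induced PP2C gene, ranked 14449 and 1226 at the region 1675 bp from the gene. LEA7, a late embryogenesis abundant protein gene, ranked 13177 and 106 at a mutant gain that the wild-type control list also held, at −log10 p 4.65. The gained region of COR15A and COR15B is outside the one-to-one set and ranked 14966 of 18584 in the mutant list and 897 of 17891 in the wild-type list. The strongest gain, near DUO3, ranked high in both, at 192 and 609. The 10 strongest shared gains were chosen by their rank in the mutant, which favours a higher rank there. Their direction therefore cannot be set against the general one. Those near DUO3, AT2G15110 (3189 and 5996), AT4G37950, AT2G15440, AT2G13295, AT4G23500 and CRK36 (6945 and 10295) ranked higher in the mutant. Those near RAP2.10 (2986 and 1514) and ZF14 (5041 and 1747) ranked higher in the wild type, and that near AT5G37290 is outside the one-to-one set.

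**Figure D3:**
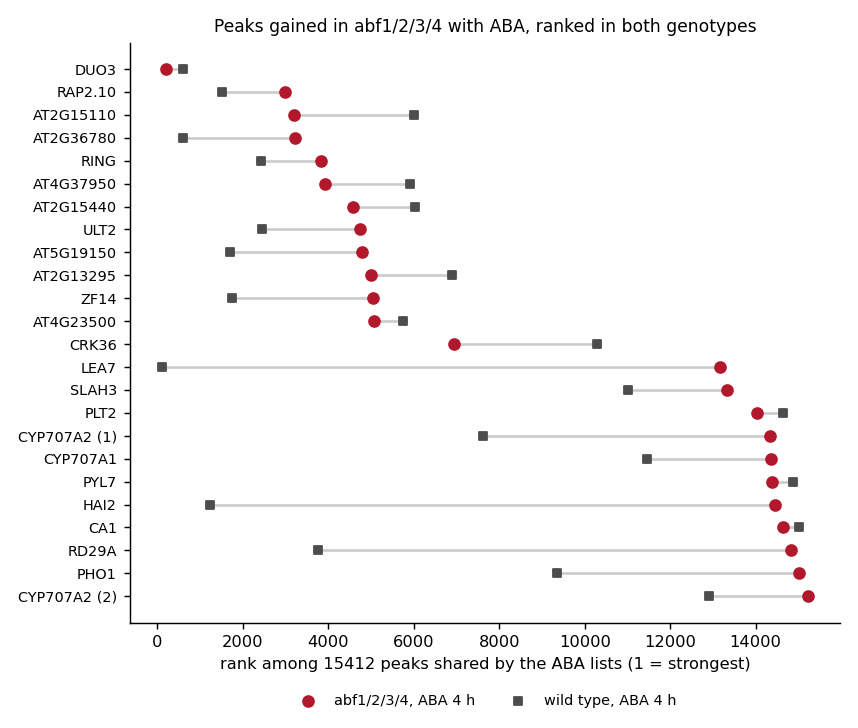
Rank (horizontal axis, 1 is strongest) of regions gained in abf1/2/3/4 among the 15412 peaks shared one to one by the ABA lists of the mutant (red circles) and the wild type (grey squares). Long lines mark LEA7, HAI2 and RD29A, which stand far higher in the wild type, and numbers in brackets tell apart the regions of CYP707A2.

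Regions gained in the mutant that neither wild-type list held were weaker still, with a best rank of 9817 and a median −log10 p of 4.35. The strongest of these 363 lay 135 bp from IRX9, a gene of xylan synthesis (−log10 p 7.26). Next came peaks inside SWEET16, a vacuolar sugar transporter gene (7.11), and inside AT1G51440 (7.05). One lay 860 bp from LOX2, a chloroplast lipoxygenase gene of jasmonate synthesis (6.65), and one inside BCAT7, an aminotransferase gene (6.47). Others among the first 10 were near HAM3, a GRAS factor gene (6.33), and KCS8, a gene for elongation of very long fatty acids (6.10). Of these 10 regions, 8 had no peak in any wild-type guard cell list of the series.

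Gained and lost regions were also looked up in the other guard cell lists. The list at 24 h of ABA held 56.2% of the gained regions, the wild-type control list 40.3%, the 1000 ppm CO2 list 33.5% and the 100 ppm list 18.1%. For other ABA peaks at equal rank the shares were 81.1%, 97.6%, 93.2% and 86.1%. Those peaks all have an untreated mutant peak by definition and gained regions have none, so a lower share of gains in lists without ABA is in part fixed by the choice of regions. Lost regions went the other way, with 36.5% found at 24 h of ABA, 60.4% at 1000 ppm CO2 and 76.9% at 100 ppm, against 83.2%, 90.1% and 75.4% at equal rank. The choice bears on lost regions likewise, in lists with ABA. In abf1/2/3/4 roots the list with ABA for 2 h held 38.8% of gained and 23.1% of lost regions, and the untreated list 42.7% and 31.0%. At equal rank the shares were 39.9% and 43.1% with ABA, and 48.3% and 50.8% untreated.

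Summits of gained peaks lay inside protein-coding genes in 31.0% of cases (95% interval 28.6 to 33.5), against 45.4% for other ABA peaks of equal rank. More than 1 kb from any gene lay 21.6% of them, against 12.0%. Lost peaks were inside genes in 47.1% of cases (45.1 to 49.1), against 42.1% at equal rank, and within 1 kb of a gene in 34.8%, against 45.4%. More than 1 kb from any gene lay 18.1% of them, against 12.5%, an excess in the same direction as for gains. More than 5 kb from any gene lay 68 gained peaks (4.69%, 3.66 to 5.90), against 0.467% at equal rank, and 12 lost peaks (0.509%), against 1.17%. The wild type had 39 such gained peaks (2.59%).

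Gained peaks far from genes came in clusters. Of the 20 ABA peaks with AT4G06688 as their nearest gene, 12 were gained, all between 41272 and 70499 bp from it, and 8 peaks were gained there in the wild type. All 8 peaks nearest to AT3G33187 were gained, at 166690 to 219564 bp, with 5 in the wild type. AT2G12646 and AT4G06744 had 6 gained peaks each. Their −log10 p values were low, between 3.62 and 7.19 over these 4 clusters. How reads that match several places were treated is not given in the sources used here, and the part of repeated sequence in these clusters was not tested. These clusters were chosen after their values were seen.

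Rank changes of shared peaks add the regions that were open in both states. One-to-one overlap paired 16089 peaks of the mutant lists, with a Spearman correlation of ranks of 0.86 and a median move of 1217 places. With ABA, 462 peaks (2.87%) moved up by 5000 places or more and 491 (3.05%) moved down as far. In the wild type, 732 of 14974 (4.89%) moved up and 459 (3.07%) moved down, with a correlation of 0.79. The moves downward were thus of like frequency in both genotypes, and large moves upward were rarer in the mutant.

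The largest rises were close to complete switches in strength. The peak near AT5G27930, 5688 bp from that gene, moved from rank 15992 to rank 991 of 16089, with a −log10 p of 3.81 without ABA and 14.61 with it. The wild-type values of that region were 9.24 without ABA and 20.52 with it. The peak 340 bp from CDC6, a gene for the licensing of replication origins, moved from 15149 to 497, at 4.63 and 16.15. PATL1, a gene for a lipid-binding protein of membrane traffic, moved from 15353 to 2825 at a peak 309 bp away, at 4.48 and 11.63. The other 5 of the 8 largest rises were near AT4G06744, AT1G52245, AT3G29645, AT4G11610 and AT5G59480, with moves of 10916 to 12493 places. All 8 regions had a higher −log10 p with ABA for 4 h than without in the wild type also, from 10.17 to 10.24 for AT4G11610, the narrowest difference.

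The largest fall was at a regulator of growth in shade. The peak 1702 bp from HB-2, the shade-responsive homeodomain gene also called ATHB2, moved from rank 1768 to 15651, with a −log10 p of 14.02 without ABA and 4.13 with it. The wild type had 16.34 without ABA there, no peak at 4 h of ABA and 6.57 at 24 h. The peak 1029 bp from F8H, a gene of glucuronoxylan synthesis, moved from 2478 to 15579, and that 240 bp from CKX6, a cytokinin oxidase gene, from 3775 to 16088. Both regions were open in the wild type without ABA and had no peak with ABA at 4 h or 24 h. The peak inside D6PK, a kinase gene that activates PIN auxin exporters, moved from 641 to 12032, with 16.55 and 5.83, and in the wild type it went from 18.01 to 3.75. A falling peak 1262 bp from AT2G40800 has the microRNA gene MIR319c within 3 kb, and the one inside AT3G02370 has COL2, a CONSTANS-like gene, in reach. The remaining falls were 4841 bp from AT4G16770, with no gene within 3 kb, and 84 bp from AT5G38010.

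**Figure D4:**
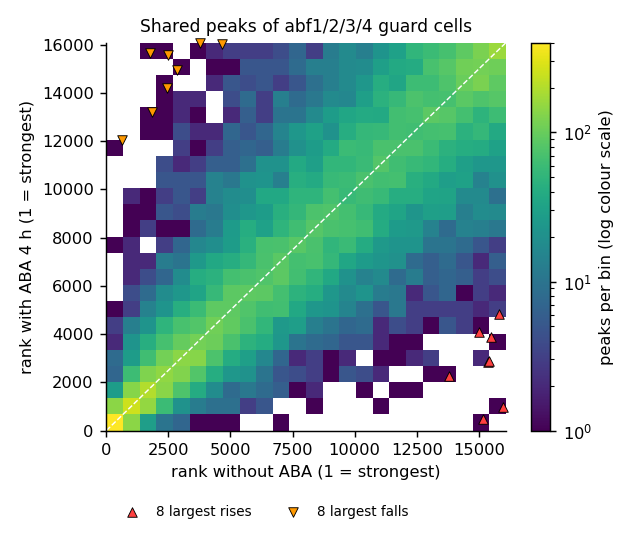
Rank with ABA (vertical axis) against rank without ABA (horizontal axis) for the 16089 shared peaks of abf1/2/3/4 guard cells, as the number of peaks per bin on a log colour scale, with 1 as the strongest rank. The 8 largest rises (red) lie at the lower right and the 8 largest falls (orange) at the upper left, away from the dashed line of equal rank.

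Rank moves pointed the same way in the 2 genotypes for most of the regions that moved far. Over 13365 regions matched in all 4 lists, the move in the mutant and that in the wild type had a Spearman correlation of 0.62 and a Pearson correlation of 0.66. These are descriptions across regions, which share libraries within each genotype and no sample between genotypes. Of the 500 largest rises in the mutant, 489 (97.8%) also moved up in the wild type, against 45.9% of all regions. Of the 500 largest falls, 450 (90.0%) moved down in the wild type, against 54.0%. The median rise was 4862 places in the mutant and 4239 in the wild type for the first set, which was chosen on the mutant values.

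**Figure D5:**
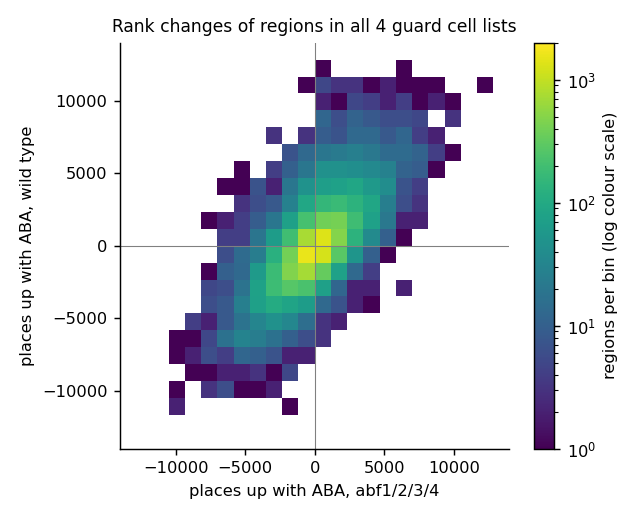
Places moved up in rank with ABA in the wild type (vertical axis) against abf1/2/3/4 (horizontal axis) for 13365 regions present in all 4 guard cell lists, as the number of regions per bin on a log colour scale. The cloud runs from lower left to upper right, and its Spearman correlation is 0.62.

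Genes of the ABA pathway were read from 10 lists with 142 genes, counting a peak that overlaps the gene or 1500 bp beyond either end. Over all 27444 protein-coding genes, 1930 (7.03%) had a gained peak in the mutant and 3151 (11.5%) a lost one. The wild-type counts were 1995 (7.27%) and 5895 (21.5%). Genes with a gain in both genotypes numbered 657, which is 34.0% of the mutant's and 32.9% of the wild type's. Genes with a loss in both numbered 2457, which is 78.0% and 41.7%. For each gene the strongest one-to-one shared peak was also followed, and over all genes 52.4% of such peaks ranked higher with ABA in the mutant and 45.6% in the wild type, each within its own shared set. This measure was added after the values were seen. The peak was chosen in each genotype separately, so the mutant and wild-type ranks of a gene can belong to different peaks. The followed peak was the strongest at the gene in both mutant lists for 91 of 118 listed genes, so a rank given for a gene is that of 1 peak. Exceptions named below include ABI1, PYR1, PYL5, PYL8, HAB1, NCED5, CYP707A1, CYP707A3, ABCG25, EM6, ERD10, NAC032, NAC055, MYB44, MYB102 and KAT1.

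Many calls at listed genes rest on weak peaks. With the control list shortened to equal length, the losses at PYL8, OST1, SNRK2.5, ABA2, BLUS1, CAB1, RBCS2B and RBCS3B ended, as did 1 of the losses at PYL5. With a −log10 p of at least 5 required in both lists, those calls ended as well. So did the gains at HAI2, PYL7, PYL13, CYP707A1, CYP707A2, NCED5, BGLU18, RD29A, CA1, PLT2 and PHO1, 1 of the gains at PYL9, the losses at HB5, MYB102, MYB74, ZAT10, NCED3, GORK and GC1, and 1 of the losses at HAB1. Over all 10 lists, 16 genes had a gain and 29 a loss, against 21 and 21 with lists of equal length.

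Receptor genes mostly ranked lower with ABA in the mutant. Of 14 receptor genes, 4 had a lost peak (PYL1, PYL5, PYL6 and PYL8) and 3 a gained one (PYL7, PYL9 and PYL13). Of the 10 shared peaks followed at these genes, 8 ranked lower with ABA and 2 higher, with a median fall of 2846 places. Wild-type lists had 9 of 10 lower, with a median fall of 3038 places. PYL5 moved from rank 317 to 4658 in the mutant and from 228 to 4847 in the wild type. The followed peak of PYR1 moved from 3054 to 12897 in the mutant, and that of PYL8 from 2711 to 9652. Within the ABA list other peaks at these genes were stronger than the followed ones. The highest −log10 p at PYR1 was 12.28 without ABA and 9.45 with it, and at PYL8 12.67 and 10.99. At PYL1 and PYL6 both control peaks of the mutant were lost and no peak was left with ABA. PYL1 had −log10 p values of 7.71 and 8.81 in its lost peaks, and PYL6 had 9.89 and 6.76. A lost peak 350 bp from PYL5, with a −log10 p of 10.51, was among the 10 strongest losses common to both genotypes.

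Followed peaks at phosphatase genes rose less often in the mutant, though they need not be the same peaks in both genotypes. Clade A PP2C phosphatases hold the pathway off, and ABA is known to raise many of them in a negative feedback. In the mutant HAI2 had a gained peak, and HAB1 and HAI1 had lost ones, among 9 genes. Of the 8 strongest shared peaks, 5 ranked higher with ABA, with a median rise of 111 places, against 7 of 7 in the wild type and a median rise of 1095. At ABI1 the wild-type peak followed was a minor one. It moved from 4469 to 2131, while the best wild-type control rank at the gene was 132 in the whole list. PP2CA had a followed peak in the mutant, from 145 to 233, and none in the wild type. HAI1 moved from rank 3484 to 4862 in the mutant and from 4446 to 407 in the wild type. HAB1 moved from 13478 to 12260 in the mutant and from 11474 to 2074 in the wild type. HAB2 ranked higher with ABA in both, going from 2289 to 698 and from 1293 to 198. ABI2 stood among the strongest peaks in each state, at 197 and 130 in the mutant and at 83 and 16 in the wild type.

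At the ABF genes the mutant had no gained and no lost peak, and neither had the 5 related bZIP genes of the list. The wild type had gained peaks at ABF3, ABF4 and ABI5. Peaks at the mutated genes check nothing of the mutation, since a mutant promoter can stay open. ABF4 moved from rank 7998 to 4146 in the mutant and from 8402 to 4281 in the wild type, and ABF1 from 11946 to 10211 and from 9633 to 6074. ABF2 stayed at 553 and 562 in the mutant, against 787 and 244 in the wild type. SnRK2 kinase genes had no gain and 2 losses of 10, at SNRK2.5 (−log10 p 4.28) and OST1 (3.57), the latter 1691 bp from the gene and near the weakest value of the list.

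Protective genes gained peaks and mostly moved up in the mutant. The list of desiccation and cold protection holds 20 genes, most of them textbook ABA targets. Among them are genes for hydrophilic LEA, dehydrin and lipid transfer proteins. RD29A, COR15A, COR15B and LEA7 had a gained peak in the mutant and none of the 20 had a lost one, and the wild type had 6 with a gain and none with a loss. COR15A and COR15B share 1 gained peak. Its −log10 p was 5.15 over 665 bp in the mutant and 15.11 over 3133 bp in the wild type. The gained peak at RD29A had 4.39 over 652 bp in the mutant and 10.31 over 1749 bp in the wild type, and the one 205 bp from LEA7 had 5.36 and 19.45.

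The strongest shared peaks of these genes showed larger values than the gained ones. Of 12 such peaks in the mutant 8 ranked higher with ABA, with a median rise of 594 places, and in the wild type 6 of 8 did, with a median rise of 2463. The peak shared by RD29A and RD29B moved from rank 4546 to 632 in the mutant and from 6652 to 57 in the wild type. A peak between the COR15 genes moved from 8179 to 1331, one at the dehydrin genes LTI30 and XERO1 from 7131 to 1362, and one at ERD10 and COR47 from 1939 to 128. At EM6, a gene for a seed LEA protein, the followed peak moved from 9353 to 12606, while the strongest peak at the gene had a −log10 p of 7.73 without ABA and a different peak had 13.64 with ABA. RAB18, a dehydrin gene used as an ABA reporter, was among the strongest peaks in both states, at 290 and 243. LTP4 had no peak in either mutant list and a gained one of −log10 p 11.81 in the wild type.

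Transcription factor genes of stress had lost peaks and no gained ones in the mutant. Of 23 genes, 8 had a lost peak in the mutant (HB5, DREB2A, CBF2, CBF3, MYB102, MYB74, HSFA6A and ZAT10) and none a gained one. Over all protein-coding genes, 11.5% had a lost peak and 7.03% a gained one. The regions lost at CBF2, CBF3, MYB102, MYB74 and HSFA6A were in both wild-type lists. The wild type had gains at HB7 and HSFA6B and losses at 5 genes, of which DREB2A and ZAT10 were lost in both genotypes. CBF2 and CBF3 share 1 lost peak. Of the 22 strongest shared peaks 9 ranked higher with ABA in the mutant, with a median fall of 146 places, and 14 of 19 did in the wild type, with a median rise of 933. These counts do not compare the same peaks, since some peaks followed were minor ones. In the mutant this held at NAC032, NAC055, MYB44 and MYB102. The wild-type peak followed at CBF1 moved from 14476 to 2036 and that at NAC019 from 11708 to 3607. The best wild-type control ranks at these genes were 304 and 338 in the whole list. MYB74 moved from rank 1136 to 6126 in the mutant, and CBF4 moved up from 1555 to 536. HSFA6B, a heat shock factor gene, had no peak in either mutant list and a peak of −log10 p 16.83 in the wild type with ABA. NAC019 had strong peaks in both states of the mutant, at 398 and 349.

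Genes that make and break down ABA gave weak calls. NCED3, ABA1 and ABA2, all on the path of synthesis, had a lost peak in the mutant and in the wild type. NCED5 had a gained peak of −log10 p 4.14. CYP707A1 and CYP707A2, hydroxylase genes of ABA breakdown, had gained peaks between 4.01 and 4.72, in regions that both wild-type lists held. BGLU18, whose enzyme frees ABA from its glucose ester, had 1 at 4.45. Of the 13 strongest shared peaks of this list 3 ranked higher with ABA in the mutant and 8 in the wild type. Here too some peaks followed were minor ones. At NCED5 the mutant peak followed had a −log10 p of 5.21 without ABA and 4.49 with it. The highest value at that gene was 15.82 without ABA and 17.36 with it. The wild-type peak followed at CYP707A2 moved from 13018 to 7268, while the best wild-type control rank at the gene was 718 in the whole list. CYP707A1 moved from rank 3874 to 9086 in the mutant, and CYP707A3 from 6916 to 12900. ABCG25, an ABA exporter gene, moved from 2785 to 6287 in the mutant and from 2515 to 1187 in the wild type.

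Guard cell genes lost peaks in both genotypes. In the mutant 6 of 20 had a lost peak: GORK, GC1, BLUS1, AHA1, AKS2 and AKS3. All 6 genes had a lost peak in the wild type as well, where the count was 11, but not always in the same region. The regions lost in the mutant at GORK and AHA1 were in both wild-type lists. That of AHA1 had a −log10 p of 11.62 without ABA and 5.02 with ABA for 4 h in the wild type. AKS2 and AKS3 encode bHLH factors that promote transcription of potassium channel genes, AHA1 a proton pump and BLUS1 a blue light kinase, all of which act in stomatal opening. The lost peak at AKS2 had a −log10 p of 8.24, that at AHA1 7.27 and that at AKS3 6.99. The peak at BLUS1 that was shared moved from rank 1231 to 4207 in the mutant and from 1165 to 5639 in the wild type. KAT1, an inward potassium channel gene, moved from 2760 to 9021 in the mutant, and GC1, the strongest of the guard cell genes, from 5 to 14. SLAH3, an anion channel gene, had a gained peak of 5.28, and its strongest shared peak moved from 5518 to 9635.

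The region at GORK was weak in the mutant and stronger in several wild-type lists. GORK encodes the outward potassium channel through which closing guard cells release potassium. The peak 646 bp from the gene had a −log10 p of 4.89 in the untreated mutant and was lost with ABA. In the wild type that region had 5.38 over 426 bp without ABA, 12.26 over 1188 bp after 4 h and 16.17 after 24 h. At 100 ppm CO2 without ABA it had 17.00 over 1657 bp, so the wide peak was not limited to ABA. At MYB102 a lost mutant peak of 4.37 overlaps a wild-type ABA peak of 5317 bp and one of 2707 bp at 100 ppm CO2, while no peak was there at 24 h of ABA. MYB102 kept 4 peaks in the mutant with ABA. These loci were singled out after their values were seen.

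Photosynthesis genes, read as markers of mesophyll, moved down in both genotypes. CA1 had a gained peak, and RBCS2B, RBCS3B and CAB1 had lost ones. All 6 strongest shared peaks of the 9 genes ranked lower with ABA in the mutant, with a median fall of 376 places, and all 6 did in the wild type, with a median fall of 613. A change in the share of mesophyll DNA among sorted nuclei and a change within guard cells cannot be told apart in these lists. The 14 root genes had 2 with a gain, PLT2 and PHO1, and 1 with a loss, also PHO1, and 4 of their 8 strongest shared peaks ranked higher with ABA. The lost peak of PHO1, 1428 bp from it, is the one inside FAO3 named above.

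Some genes were nearest to several called peaks in the mutant. Those named here were picked after the values were seen. Not all peaks nearest to them were called. The control list held 7 at TEM1, 7 at DWF4, 6 at KRP2 and 4 at MCA1, and the ABA list held 5 at GPAT6. At BCA4 and GBF6 it was all 3 control peaks. As nearest gene, TEM1, a RAV-type repressor of flowering, had 4 lost peaks with −log10 p from 4.49 to 9.26, with 1 lost in the wild type. DWF4, an enzyme of brassinosteroid synthesis, had 4 from 4.14 to 8.17, with 3 in the wild type. KRP2 had 3, up to 10.63, with 4 in the wild type. BCA4, a carbonic anhydrase gene known from the CO2 response of guard cells, had 3 lost peaks inside the gene from 4.38 to 5.26, with 2 in the wild type. GBF6, also known as bZIP11, had 3 from 3.75 to 5.65, with 1 in the wild type, and MCA1, a calcium channel gene, had 3 from 5.41 to 6.23, with 2. Among gains, GPAT6, an enzyme of cutin synthesis, had 3 peaks from 3.89 to 4.96 in the mutant and 3 in the wild type.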

How the data were processed

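Members and gene lists were chosen with earlier results of these data known. The submitters' processing notes name Trim Galore 0.6.5, Genrich and the build TAIR10, without roles or settings. The deposited lists have 1 list per group in narrowPeak layout, with no columns per sample (0). The authors deposited a −log10 p, uncorrected, and an area score of at least 200 for each peak. The deposited scores served only to rank or filter within a list.

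Peaks were ranked by −log10 p, ties by area score, then position. Overlap was 1 bp, and intervals are exact (Clopper-Pearson, 95%). Peaks overlapping one to one formed shared sets of equal length. Equal-rank values weight the other peaks of a list over 20 rank bins. Genes came from a RefSeq table of TAIR10.1 without strand, so a peak was given the gene holding its summit or with the nearest end. The build was checked by summits no farther than 150 bp from a gene end, which were 50.8% of ABA peaks and 13.8% or 14.2% once shifted by 5000 bp. Named are the 12 strongest gains and losses, the 8 largest rises and falls with a better rank of 5000 or above, the 10 strongest of each class shared with or absent from wild type, and listed genes with a call. The overlap and rank steps were tested on simulated lists. Python 3.11.15, pandas 2.3.3 and scipy 1.17.1 were used. The planned motif comparison was not run, since genome sequence was not used here.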

Additional observations from a re-analysis of the deposited data

Results flagged for a closer look

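Opposite calls in the 2 genotypes were looked up by region. Such a difference between genotypes was not tested, since each group has 1 list. In the mutant 149 regions were gained that the wild type lost, and 21 were lost that the wild type gained. These were 10.3% of the mutant gains and 0.890% of its losses. Of other mutant peaks at equal rank, which both mutant lists hold by definition, 34.9% and 2.52% had the same wild-type call. Those reference shares are in part fixed by the choice of peaks, so no conclusion on the frequency of opposite calls was drawn. Among the former, the peak inside PDV2, a gene for plastid division, had a −log10 p of 5.82, and the one inside CA2, a carbonic anhydrase gene, 5.70. At HAI2 the peak inside the gene had 4.45 in the mutant with ABA and none without, while the wild type had 8.11 without ABA and none after 4 h. At 24 h of ABA the wild-type list held the HAI2 region again, at 7.39, and the PDV2 region, at 5.80, but not the CA2 region. Among the latter, the mutant control peak near ADC2, an arginine decarboxylase gene of polyamine synthesis, had 4.83 over 195 bp, and the wild-type ABA peak there had 15.84 over 2661 bp. The lost peak 1 bp from SUC2, a sucrose transporter gene of the phloem, had 4.89. The lost peak 80 bp from HAB1 had 4.83, and the wild-type ABA peak of 1172 bp over it also covers a second mutant peak that both wild-type lists held. All 6 mutant peaks named here ranked in the lower 50% of their list. PDV2, CA2, ADC2 and SUC2 were chosen after their values were seen.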

How the results depend on the processing

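Counts of gained and lost peaks stayed within 1.5 times the reported ones with 50% overlap, summit overlap, a 500 bp gap, lists shortened to equal length and −log10 p of at least 5. With −log10 p of at least 10 in both lists 447 peaks were gained and 1637 lost. Among the 5000 strongest peaks 7 were gained and 8 lost. Lists of equal length gave 44.8% of gains and 59.0% of losses common to both genotypes. Ranking by area score gave a Spearman correlation of 0.64 between the genotypes, and all 16 named rank moves kept their direction. A 3000 bp window gave 45 listed genes with a loss, against 29, and equal list lengths gave 21 with a gain, against 16, and 21 with a loss. Of the calls named individually, 39 of 53 gains and 32 of 56 losses held with −log10 p of at least 5, and 53 and 46 with equal list lengths. A peak named for several genes is counted here once per gene. Near a gene lay 34.8% of gains and 24.6% of losses within 500 bp, and 57.1% and 46.4% within 2 kb. Of the 12 strongest gains 10 and of the 12 strongest losses 6 lay over 500 bp from the other list. Cause was not tested where the lists' construction does not show it. No paired analysis was possible because each group has 1 pooled list, and leaving out a replicate was not possible for the same reason. The planned motif comparison was not run. Depth per sample is unknown, which limits every statement on a missing weak peak.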
